A study of Mus musculus with 8 samples.

Results

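Solute carriers are membrane proteins that move nutrients, ions, vitamins and waste across the plasma membrane and the membranes of organelles without burning ATP themselves. They were followed here as the genes whose platform symbol is Slc followed by a family number, 1 probe set per gene, with Slc16a3 left out. The rule gave 171 of the 9294 genes measured, all of them represented by their only probe set with a single symbol. The values came from 8 one-colour arrays of mouse keratinocytes of the C57BL/6 strain, all transduced with v-rasHa, an activated viral Hras oncogene, 3 days earlier and kept in regular medium. The 4 Nfkbiz KO v-rasHa arrays came from cells without Nfkbiz, the gene of IkBz, a protein that works in the nucleus on genes controlled by NF-kB, and the 4 wildtype v-rasHa arrays from cells that carry it. The labels call the 4 samples of each genotype biological replicates and say neither how the knockout was made nor whether cells of several animals were pooled. No culture without the oncogene was measured, so every difference below is one between genotypes in the presence of v-rasHa. Nfkbiz itself was not analysed here, so the knockout was not checked from these values.

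In skin, solute carriers feed the growing basal layer and help to build the barrier. Amino acid exchangers such as LAT1 import building blocks for protein, zinc importers of the Slc39 family serve differentiating keratinocytes, and fatty acid transport proteins of the Slc27 family supply lipids of the barrier. Oncogenic RAS is known to raise the demand for glucose and amino acids. Families are numbered by sequence, and most numbers therefore stand for a kind of solute. A few symbols of the set are not transporters: Slc6a19os, Slc36a1os and Slc7a6os are named for the opposite strand of a carrier gene, Slc4a1ap encodes an adaptor and Slc2a4rg-ps is a pseudogene. None of these 5 passed the test.

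As deposited, array medians were 4.49 to 4.54 in KO arrays and 4.54 to 4.57 in wild-type arrays on the log2 scale. Without detection calls, a low signal cannot be separated from background. The cultures carried the keratinocyte marker Krt5 at a log2 signal of 13.29 in KO and 13.42 in wild-type arrays, and the summed linear signal of 4 keratinocyte markers, of which Col17a1 fell, was 12020 to 13390 in KO and 13670 to 14430 in wild-type arrays. Markers of other cells were present too. Of 7 measured fibroblast markers, 6 fell and Postn rose, and their summed linear signal was 621.2 to 706.8 in KO arrays, against 946.7 to 1028 in wild-type arrays, with none of them below the median in all arrays. Of 4 melanocyte markers, Gpr143 and Pmel fell, with sums of 2208 to 2711 in KO and 2844 to 2980 in wild-type arrays. Of 6 leukocyte markers, Tyrobp fell and 4 lay below the array medians in all arrays, with sums of 164.2 to 176.4 in KO and 177.6 to 208.8 in wild-type arrays. None of 3 endothelial and 2 muscle markers passed the test (limma), while 1 and none of them had an unadjusted p under 0.05. Their sums were 66.35 to 82.46 in KO and 76.49 to 85.2 in wild-type arrays for endothelial markers, and 117.5 to 133 in KO and 97.6 to 130.5 in wild-type arrays for muscle markers. The part of these cells in the results on solute carriers was not tested, and fewer cells of a type and less RNA per cell cannot be told apart in such cultures.

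A small number of solute carrier genes differed between the genotypes, and by modest amounts. Genes for the uptake of peptides, monocarboxylates and amino acids were among those that fell in the KO cells, and genes for a zinc importer, a calcium exchanger and the serotonin transporter were among those that rose. In limma with Benjamini-Hochberg adjustment over all 9294 genes, at an adjusted p of 0.05, 10 of the 171 members fell and 6 rose. That is 9.36% of the members, against 8.90% of all genes, so the share among solute carriers was near the background. By direction, the background was 4.43% lower and 4.47% higher. All 4 KO values lay below all 4 wild-type values for 15 members and above them for 9, together 24 members. Over all genes the groups did not overlap for 15.9%, with KO values lower for 7.97% and higher for 7.91%. The median log2 fold change was -0.01 over the members and also -0.01 over all genes. Without KO replicate 2, or without KO replicate 4, 10 members passed in place of 16.

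**Figure D1:**
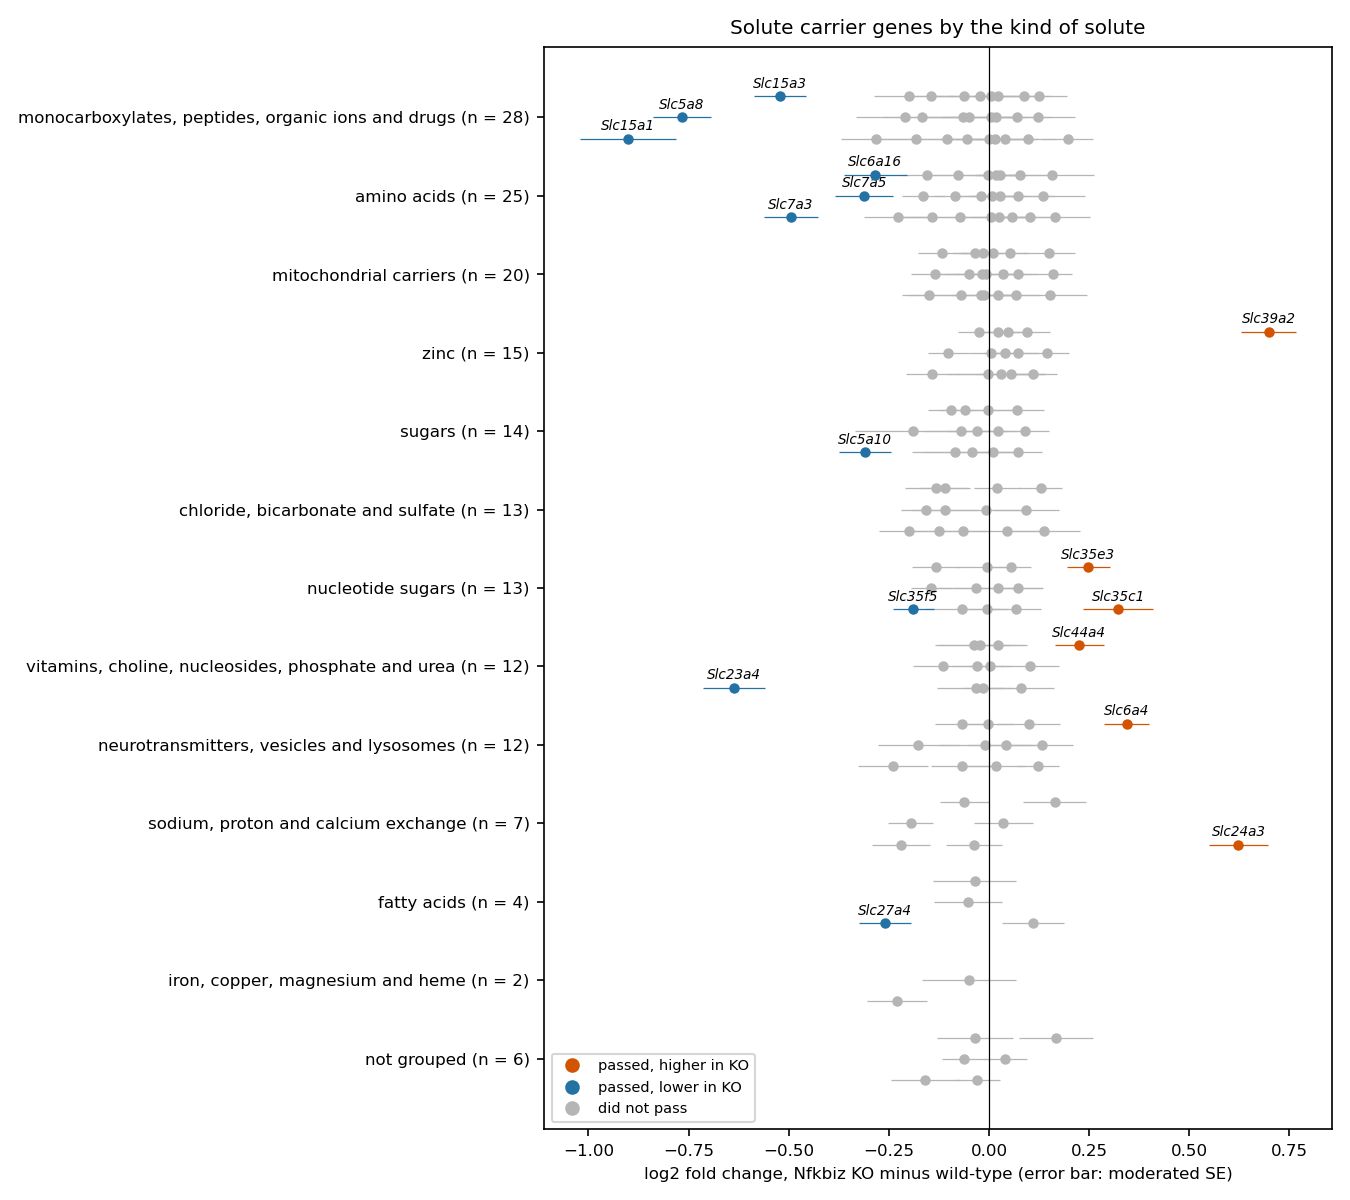
Log2 fold changes (Nfkbiz KO minus wild-type, horizontal axis) of the 171 solute carrier genes, in rows by the kind of solute, with the moderated SE as error bar and n = 4 arrays per genotype. Most points lie close to 0, the genes that fell (blue) reach -0.90 for Slc15a1, and those that rose (orange) reach 0.70 for Slc39a2.

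None of the 16 changes reached 2-fold, and the median size of their log2 fold changes was 0.33, beside 0.35 for all 827 genes that passed. Of the 16, 5 differed by at least 1.5-fold: Slc15a1, Slc5a8 and Slc23a4 in the downward direction, Slc39a2 and Slc24a3 upward. All of the 155 members that did not pass had a 95% interval of the difference, not adjusted for the number of genes, within 1.5-fold in either direction. Over all genes the same held for 8442 of the 8467 that did not pass. Of the 171 members, 84 had a mean log2 signal under 5, near or below the array medians, where low signal limits what could be detected. Of these 84 members 2 passed, beside 122 of the 4880 genes of the whole series with a mean under 5. Among the 87 members with a mean of 5 or more, 14 passed, or 16.1%, against 705 of 4414 genes with such a mean.

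**Figure D2:**
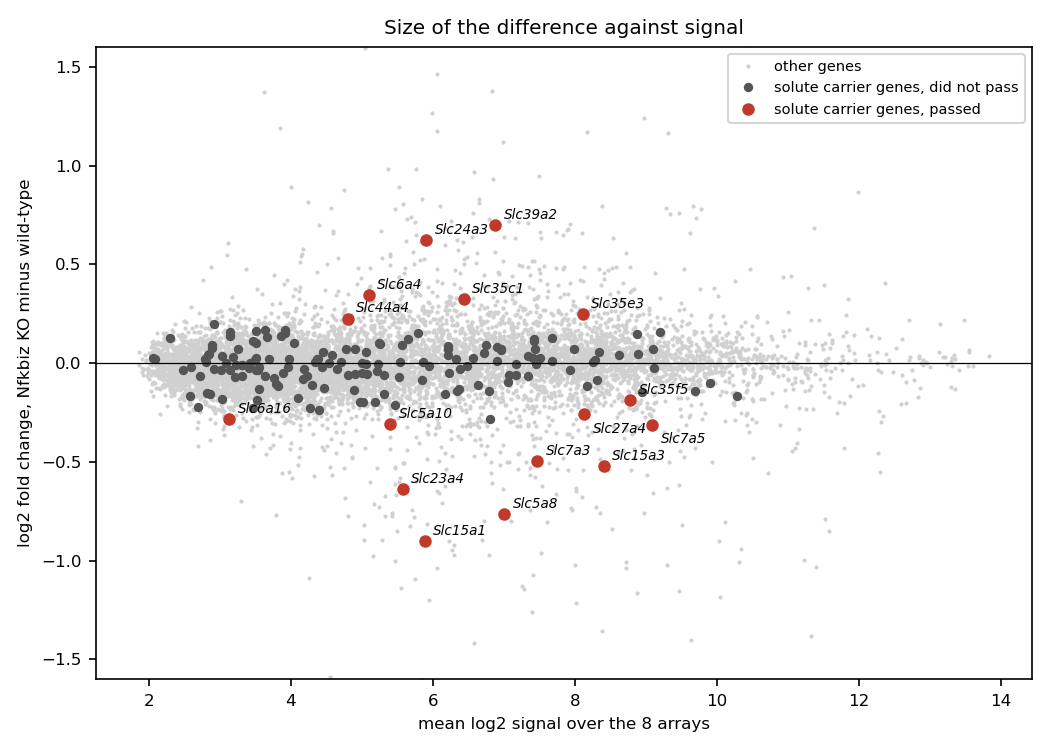
Log2 fold change (Nfkbiz KO minus wild-type, vertical axis) against mean log2 signal over the 8 arrays for solute carrier genes that passed (red), those that did not (dark grey) and other genes (light grey), of which 14 lie outside the plotted range. The solute carrier genes that passed lie mostly at a signal of 5 or more, within the range of log2 fold changes of the other genes.

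The promoters of 4 of these genes are shown because they belong to the largest fall, the largest rise and the members that rose with a kappa B match. They are taken from RefSeq (build GRCm38.p6), run 5′ to 3′ from 250 bases before to 50 bases after a transcription start, and carry in capitals the matches to 4 motifs of factors tied to this system. The motifs, searched on both strands, were the kappa B consensus of NF-kB, TGANTCA of AP-1, TTGCNNAA of C/EBP and TGATGNAA of the C/EBP-ATF element of amino acid response genes. No 2 of the matches printed here overlap. Slc15a1 lies at chr14:121505205-121505504 on the minus strand and Slc39a2 at chr14:51893360-51893659 on the plus strand. Slc24a3 lies at chr2:145242361-145242660 on the plus strand and Slc35c1 at chr2:92459745-92460044 on the minus strand. Each of these 2 genes has another start in the table, and which start its probe set reports is not known.
Slc15a1: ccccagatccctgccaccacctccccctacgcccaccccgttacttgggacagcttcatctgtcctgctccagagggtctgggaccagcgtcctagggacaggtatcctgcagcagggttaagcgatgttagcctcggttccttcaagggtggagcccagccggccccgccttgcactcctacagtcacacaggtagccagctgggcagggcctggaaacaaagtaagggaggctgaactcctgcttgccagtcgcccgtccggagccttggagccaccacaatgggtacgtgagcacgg
Slc39a2: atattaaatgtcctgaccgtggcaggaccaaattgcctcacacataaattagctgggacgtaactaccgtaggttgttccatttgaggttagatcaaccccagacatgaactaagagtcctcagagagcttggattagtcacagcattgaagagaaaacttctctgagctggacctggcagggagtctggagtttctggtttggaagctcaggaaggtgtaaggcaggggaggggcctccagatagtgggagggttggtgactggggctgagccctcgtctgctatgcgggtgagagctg
Slc24a3: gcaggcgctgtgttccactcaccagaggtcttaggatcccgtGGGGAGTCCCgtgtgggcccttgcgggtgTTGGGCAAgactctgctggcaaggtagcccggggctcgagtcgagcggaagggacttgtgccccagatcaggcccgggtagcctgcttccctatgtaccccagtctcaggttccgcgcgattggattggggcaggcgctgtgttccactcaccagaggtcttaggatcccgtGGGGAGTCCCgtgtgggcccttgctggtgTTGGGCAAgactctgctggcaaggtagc
Slc35c1: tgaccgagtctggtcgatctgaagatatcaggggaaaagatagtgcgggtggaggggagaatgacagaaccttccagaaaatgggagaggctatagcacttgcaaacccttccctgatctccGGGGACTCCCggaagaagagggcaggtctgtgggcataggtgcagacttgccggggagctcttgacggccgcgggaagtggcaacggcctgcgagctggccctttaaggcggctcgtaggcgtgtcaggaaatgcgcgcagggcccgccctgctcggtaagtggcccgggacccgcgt

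The windows of Slc15a1 and Slc39a2 held none of the 4 motifs. That of Slc24a3 held the kappa B match GGGGAGTCCC and the C/EBP match TTGGGCAA at 2 places each, and that of Slc35c1 held the kappa B match GGGGACTCCC. In Slc24a3 the 2 places lie in a stretch that recurs nearly letter for letter at both ends of the window. They are therefore copies and not separate sites. The table matched 139 of the 171 members and 13 of the 16 that passed, with 175 and 17 starts. Slc15a3, Slc7a3 and Slc7a5, which fell, were not matched and not searched. The kappa B consensus was found in 2 of the 17 windows, those of Slc24a3 and Slc35c1 and therefore in none of the 9 windows of the genes that fell and were matched, against 14 of 175 (8.00%) for the members and 4.51% for all 32851 windows. C/EBP letters were in 4 of the 17 (23.5%), against 14 of 175 (8.00%) for the members and 10.8% of all windows. AP-1 letters and the C/EBP-ATF element were in none of the 17, against 5.71% and 3.43% for the members and 7.81% and 3.97% of all. At such shares, 9 or 17 windows are too few to set none apart from them. These matches are descriptions of letters in a window and not of binding.

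The largest falls by size were those of a peptide carrier, Slc15a1, and a monocarboxylate carrier, Slc5a8. In the list of 28 carriers of monocarboxylates, peptides, organic ions and drugs, 3 fell, none rose and 25 did not pass, with a median log2 fold change of -0.04. Slc15a1 encodes PEPT1, the proton-coupled importer of short peptides known best from the gut. Its log2 signal was 5.04, 5.58, 5.40 and 5.72 in KO arrays, against 6.38, 6.35, 6.33 and 6.28 in wild-type arrays. The groups did not overlap, and the KO arrays were spread more widely, with KO replicate 1 lowest. The log2 fold change was -0.90 ± 0.12 (SE), a 1.87-fold lower signal (limma adjusted p = 0.000591). Its relative Slc15a3, a lysosomal carrier of histidine and peptides that is known from macrophages, had 8.01, 8.17, 8.31 and 8.11 in KO arrays, against 8.69, 8.67, 8.68 and 8.64 in wild-type arrays. The wild-type values lay close together and above every KO value, with a log2 fold change of -0.52 ± 0.06 (limma adjusted p = 0.000376). The macrophage marker Cd68 stood at 6.30 in KO and 6.53 in wild-type arrays (limma adjusted p = 0.131). All 6 leukocyte markers measured had a negative log2 fold change, as had 5061 of all 9294 genes. It was very small for Itgam, Cd207 and Cd3e, at -0.012, -0.0065 and -0.0013. Of the 6 markers, 4 lay below the array medians in all arrays, and Tyrobp alone passed, with -0.25 (limma adjusted p = 0.0367). The part of leukocytes in the fall of Slc15a3 was not tested. The third Slc15 gene, Slc15a5, lay at 2.50 in KO and 2.66 in wild-type arrays, below the array quartiles, and did not pass (limma adjusted p = 0.395).

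Slc5a8 encodes a sodium-coupled importer of lactate, short-chain fatty acids and nicotinate. It read 6.55, 6.69, 6.57 and 6.67 in KO arrays, against 7.42, 7.19, 7.51 and 7.43 in wild-type arrays. The groups did not overlap, and their nearest arrays were KO replicate 2 and wild-type replicate 2. The log2 fold change was -0.77 ± 0.07 (SE), or 1.70-fold lower (limma adjusted p = 5.48e-05). None of the 5 Slc16 genes measured, without Slc16a3, passed, and they ranged from -0.20 to 0.13 in log2 fold change. Slc16a1 was not analysed here, so these values do not cover every monocarboxylate carrier. Slc10a6, a carrier of sulfated steroids named after its values were seen, had no overlap between 6.47 to 6.79 in KO and 6.81 to 7.15 in wild-type arrays, with a log2 fold change of -0.28 that did not pass (limma adjusted p = 0.0796). Slc10a6 passed when genes with a mean under 5 were not tested and with the trend and robust settings of eBayes. None of 13 Slc22 genes, the organic ion and drug carriers, passed, while 1 of them, Slc22a23, did with the trend and robust settings of eBayes.

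Amino acid carriers gave 3 falls and no rise among 25 members, or 12%, beside 8.90% of all genes. The list median was 0.01. Slc7a3 encodes CAT3, an importer of arginine and lysine. It had 7.23, 7.14, 7.33 and 7.18 in KO arrays, against 7.80, 7.56, 7.77 and 7.73 in wild-type arrays, with no overlap. Its log2 fold change was -0.50 ± 0.07 (SE; limma adjusted p = 0.000702). Slc7a5 encodes LAT1, the exchanger that brings leucine and other large neutral amino acids into the cell, and stood at 8.94, 8.95, 9.02 and 8.83 in KO arrays, against 9.20, 9.16, 9.17 and 9.44 in wild-type arrays. The groups did not overlap, wild-type replicate 4 stood above its group, and the log2 fold change was -0.31 ± 0.07 (limma adjusted p = 0.0217). Without KO replicate 1, 2 or 4 the adjusted p of Slc7a5 was 0.0503 to 0.0639, with log2 fold changes of -0.32 to -0.28. LAT1 works as a pair with the protein of Slc3a2, the heavy chain that holds it at the membrane. Slc3a2 had 10.14, 10.25, 10.25 and 10.14 in KO arrays, against 10.32, 10.33, 10.37 and 10.43 in wild-type arrays. These did not overlap either, but the log2 fold change of -0.16 ± 0.05 did not pass (limma adjusted p = 0.0931). It passed when genes with a mean log2 signal under 5 were not tested (adjusted p = 0.025) and with the trend and robust settings of eBayes (adjusted p = 0.00323). The third fall in the list, Slc6a16, an orphan of the neurotransmitter family, lay at 2.99 in KO and 3.28 in wild-type arrays, below the lower quartiles of the arrays, with overlapping groups (limma adjusted p = 0.0459). Its adjusted p was 0.0873 to 0.122 without KO replicate 2, 3 or 4 or wild-type replicate 2, 3 or 4, with log2 fold changes of -0.29 to -0.23.

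Genes of the response to amino acid shortage, several of which share a regulator with Slc7a5 and Slc3a2, were measured beside these carriers. Of 16 such genes listed, 5 were analysed here. Of these 5, 3 fell and 2 did not pass, with a median log2 fold change of -0.31. Over all genes 8.90% passed. Cth, which makes cysteine from cystathionine, had 8.01, 8.24, 8.27 and 8.15 in KO arrays, against 8.53, 8.46, 8.55 and 8.48 in wild-type arrays (log2 fold change -0.34 ± 0.06 SE, limma adjusted p = 0.00614). Chac1, which degrades glutathione, fell without overlap, with a log2 fold change of -0.34 ± 0.06 (limma adjusted p = 0.00337). So did Psph, the last enzyme of serine synthesis, with -0.31 ± 0.06 (limma adjusted p = 0.00508). Ddit3 and Ddit4 had -0.06 and -0.05 and did not pass (limma adjusted p = 0.722 and 0.634).

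Carriers of vitamins, choline, nucleosides and phosphate held 1 fall and 1 rise among 12, or 16.7%, beside 8.90% of all genes. Slc23a4 belongs to the ascorbate transporter family and in the rat carries nucleobases. It read 5.43, 5.34, 5.11 and 5.14 in KO arrays, against 5.85, 5.81, 5.93 and 5.98 in wild-type arrays. The groups were well apart, with a log2 fold change of -0.64 ± 0.08 (SE; limma adjusted p = 0.000308). Slc44a4, a choline-like transporter that in human cells carries thiamine pyrophosphate, averaged 4.91 ± 0.07 in KO and 4.69 ± 0.09 in wild-type arrays (SD, n = 4 each). This low signal gave a log2 fold change of 0.22 ± 0.06 (limma adjusted p = 0.0453), and the adjusted p was 0.0884 to 0.123, with log2 fold changes of 0.20 to 0.23, without KO replicate 2, 3 or 4 or wild-type replicate 1, 2 or 3. Slc44a4 also lost its call with the trend and robust settings of eBayes, as the only member that did so.

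Among sugar carriers 1 of 14 members passed, or 7.14%, beside 8.90% of all genes. Slc5a10, a sodium-coupled carrier that in humans takes up mannose and fructose, had 5.25, 5.31, 5.18 and 5.24 in KO arrays, against 5.47, 5.51, 5.73 and 5.52 in wild-type arrays. All KO values were lower, with a log2 fold change of -0.31 ± 0.07 (SE; limma adjusted p = 0.0126). Slc2a8, an intracellular glucose transporter, and Slc37a4, the glucose-6-phosphate translocase of the endoplasmic reticulum, both named after their values were seen, differed by -0.10 and 0.01 on the log2 scale and did not pass (limma adjusted p = 0.392 and 0.955). Slc2a1, the main glucose importer of keratinocytes, was not analysed here. Of 15 glycolysis genes listed downstream of glucose entry, 4 were analysed here. Hk2, Ldha and Pgam1 fell, with log2 fold changes of -0.44, -0.24 and -0.20, and Pkm did not pass. Pgam1 had adjusted p-values of 0.0588 to 0.0989 without KO replicate 1, 3 or 4 or any single wild-type array.

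Of 4 fatty acid transport proteins, Slc27a4 fell. This gene encodes FATP4, whose loss in mice gives a defective skin barrier. It had 7.94, 8.06, 7.97 and 8.03 in KO arrays, against 8.09, 8.28, 8.36 and 8.30 in wild-type arrays. The groups were next to each other without overlap, with a log2 fold change of -0.26 ± 0.07 (SE; limma adjusted p = 0.0317). Its call was lost without KO replicate 1, 3 or 4 or wild-type replicate 2, 3 or 4, with adjusted p-values of 0.0576 to 0.0887 and log2 fold changes of -0.27 to -0.23, and also with arrays centred on their median.

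**Figure D3:**
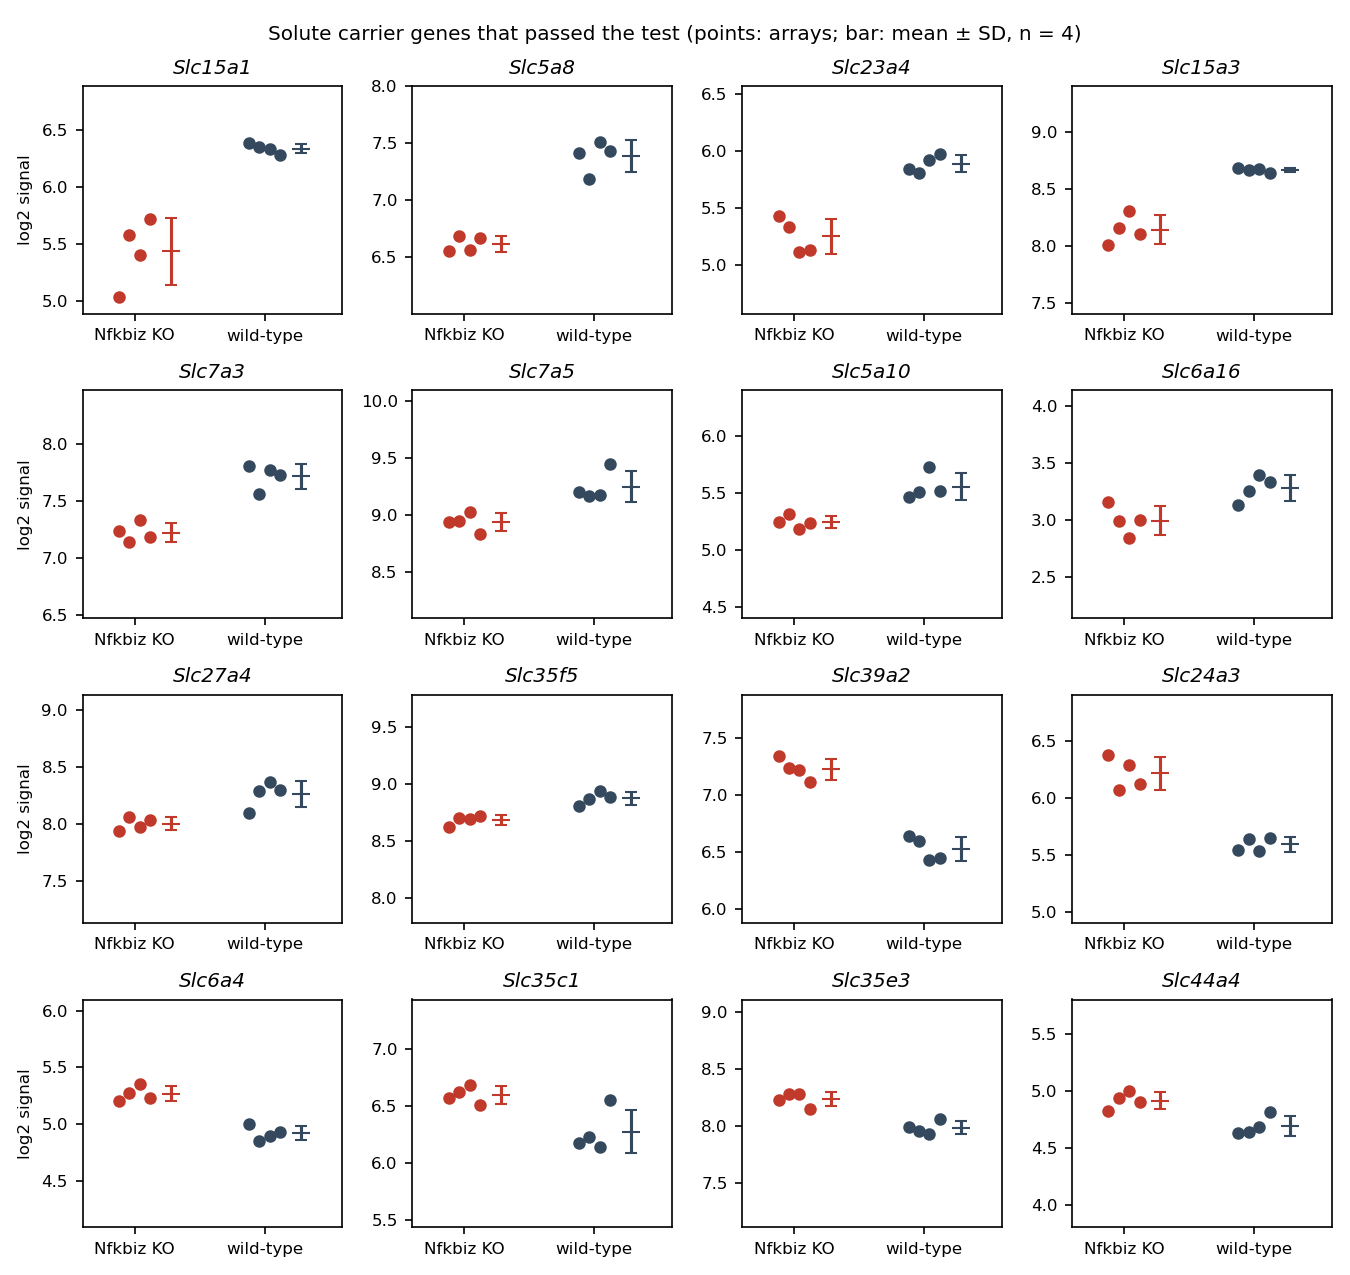
Log2 signals (vertical axis, 2 units tall in every panel) of the 16 solute carrier genes that passed, with 1 point per array for Nfkbiz KO (red, left) and wild-type (dark, right) and the mean ± SD (n = 4) beside the points. The groups are apart in 14 panels, and in those of Slc6a16 and Slc35c1 they overlap.

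The largest rise was in a zinc importer. Slc39a2 encodes ZIP2, which brings zinc into keratinocytes and is known to be needed for their differentiation. It had 7.34, 7.23, 7.21 and 7.12 in KO arrays, against 6.64, 6.59, 6.43 and 6.44 in wild-type arrays. Every KO value was higher by more than the spread within a group, with a log2 fold change of 0.70 ± 0.07 (SE), or 1.62-fold (limma adjusted p = 6.54e-05). The other 14 zinc carriers did not pass and ranged from -0.14 for Slc30a3 to 0.15 for Slc39a1, and of these Slc39a1, named after its value was seen, passed with the trend and robust settings of eBayes and when genes with a mean under 5 were not tested. Slc39a4, the intestinal zinc importer, averaged 5.05 ± 0.07 in KO and 5.05 ± 0.24 in wild-type arrays (SD, n = 4 each; limma adjusted p = 0.995). Among 3 measured metallothionein genes, whose proteins bind zinc, Mt2 rose, with 11.15, 11.09, 11.23 and 11.06 in KO arrays, against 10.89, 10.82, 10.86 and 10.92 in wild-type arrays (log2 fold change 0.26 ± 0.05 SE, limma adjusted p = 0.0132). Mt3 and Mt4 had log2 fold changes of -0.05 and 0.00 and did not pass.

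The next rises by size were those of a calcium exchanger, Slc24a3, and the serotonin transporter, Slc6a4. Slc24a3 encodes NCKX3, which exports calcium in exchange for sodium together with potassium. It read 6.38, 6.07, 6.29 and 6.12 in KO arrays, against 5.54, 5.64, 5.54 and 5.65 in wild-type arrays. The groups did not overlap, and the log2 fold change was 0.62 ± 0.07 (SE; limma adjusted p = 0.000249). Its relatives Slc24a4 and Slc24a1, named after their values were seen, had log2 fold changes of -0.20 ± 0.06 and -0.22 ± 0.07 that did not pass (limma adjusted p = 0.0597 and 0.0954). Slc24a4 passed under both filters on dim genes and without wild-type replicate 4, and Slc24a1 passed without KO replicate 3. Slc6a4, the serotonin transporter, had 5.20, 5.28, 5.36 and 5.24 in KO arrays, against 5.01, 4.85, 4.90 and 4.93 in wild-type arrays. These values did not overlap and lay not far above the array medians, with a log2 fold change of 0.34 ± 0.06 (limma adjusted p = 0.00251). The 7 members of sodium, proton and calcium exchange held no other call, and neither did the 12 carriers of neurotransmitters, vesicles and lysosomes.

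Nucleotide sugar carriers of the Slc35 family, which supply the Golgi and endoplasmic reticulum with building blocks for glycans, split in direction, with 2 rises and 1 fall among 13. That is 23.1%, beside 8.90% of all genes, a share that was not tested. Slc35c1, the GDP-fucose transporter, had 6.57, 6.62, 6.69 and 6.51 in KO arrays, against 6.18, 6.23, 6.14 and 6.55 in wild-type arrays. Wild-type replicate 4 lay within the KO range, and the log2 fold change was 0.32 ± 0.09 (SE; limma adjusted p = 0.0454). With any array but wild-type replicate 4 left out, the adjusted p of Slc35c1 was 0.0606 to 0.124, with log2 fold changes of 0.28 to 0.35, and without that array the log2 fold change was 0.42. Slc35e3, whose solute is not settled, averaged 8.24 ± 0.06 in KO and 7.99 ± 0.06 in wild-type arrays (SD, n = 4 each; limma adjusted p = 0.0152). Its adjusted p was 0.0509 without KO replicate 2, with a log2 fold change of 0.23. Slc35f5, also an orphan, averaged 8.69 ± 0.04 in KO and 8.88 ± 0.06 in wild-type arrays (SD, n = 4 each; limma adjusted p = 0.0459), and it no longer passed when any array but wild-type replicate 1 was left out, with adjusted p-values of 0.0693 to 0.128 and log2 fold changes of -0.20 to -0.17.

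Mitochondrial carriers held none of the calls. None of the 20 Slc25 genes passed in limma, beside 8.90% of all genes, and a list of this size is too small to set none apart from that share. Of the 20, 4 had an unadjusted p under 0.05, and log2 fold changes ranged from -0.15 to 0.16. Slc25a1, the citrate exporter that feeds fatty acid synthesis, was nearest, with 9.22, 9.32, 9.27 and 9.29 in KO arrays, against 9.09, 9.07, 9.16 and 9.13 in wild-type arrays. The groups did not overlap, and the log2 fold change was 0.16 ± 0.05 (SE; limma adjusted p = 0.0767). It passed, as the only Slc25 gene, with the trend and robust settings of eBayes (adjusted p = 0.00581), and also with the dimmest 25% of genes left out (adjusted p = 0.0436) or those with a mean under 5 (adjusted p = 0.0162). None of 13 carriers of chloride, bicarbonate and sulfate passed either, in limma or with those settings, with 3 at an unadjusted p under 0.05 and log2 fold changes from -0.20 to 0.14. The 2 carriers of iron and magnesium measured were Slc11a1, the phagosomal metal transporter of macrophages, with a log2 fold change of -0.23, and Slc41a2 with -0.05 (limma adjusted p = 0.0951 and 0.877). Slc11a1 passed without wild-type replicate 4.

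The shift of the 16 genes was also followed array by array. Relative to the wild-type mean, the median shift of the 10 genes that fell was -0.39, -0.40, -0.38 and -0.48 in KO replicates 1 to 4, against -0.04, -0.04, 0.06 and 0.03 in wild-type replicates 1 to 4. The median shift of the 6 that rose was 0.29, 0.35, 0.42 and 0.27 in KO replicates 1 to 4, against -0.02, -0.04, -0.05 and 0.07 in wild-type replicates 1 to 4. As the genes were chosen for this difference, these shifts are a description and no test. They are medians over genes, and single genes were less even, such as Slc15a1 with its lowest value in KO replicate 1. KO replicate 1 was the lowest of all 8 arrays for 5 of the 10 genes that fell.

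**Figure D4:**
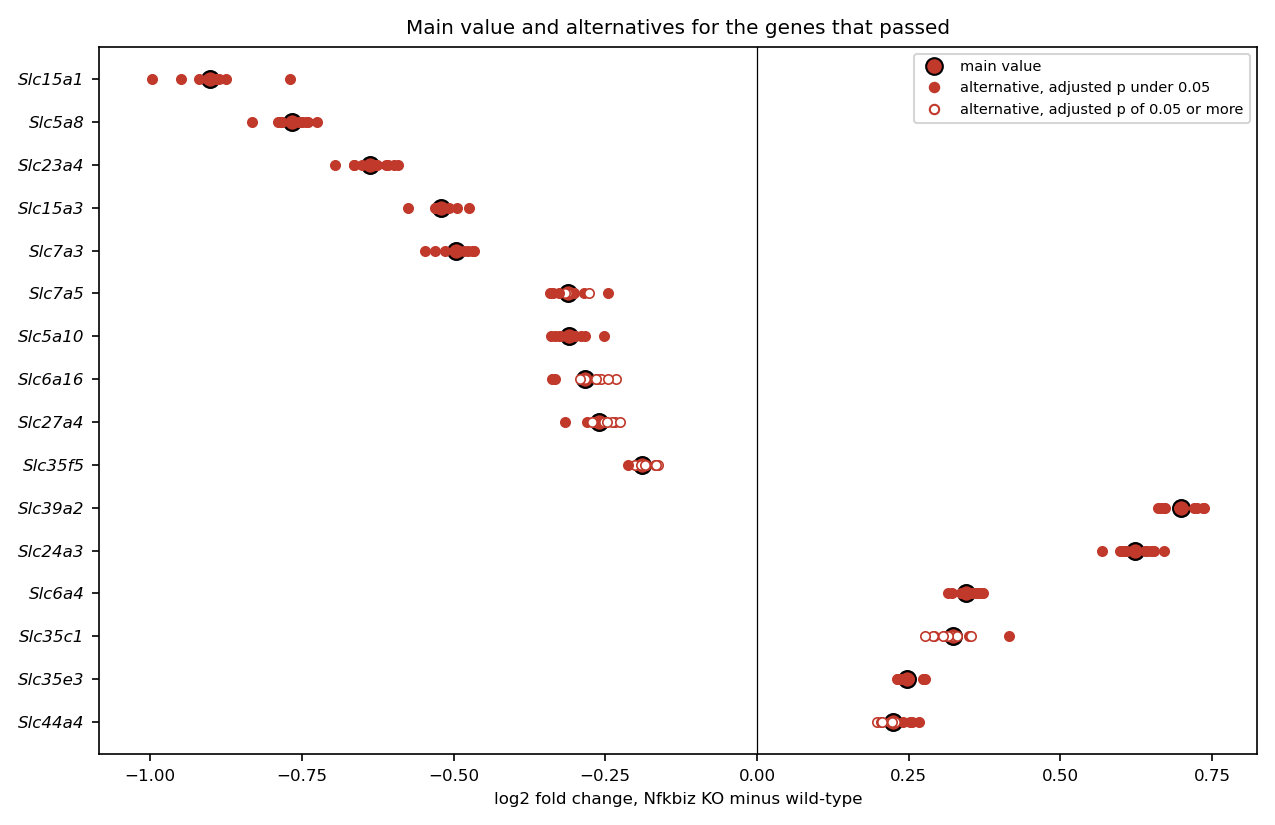
Log2 fold changes (Nfkbiz KO minus wild-type) of the 16 genes in the main fit (large points) and in up to 15 alternatives of normalization, filtering, variance model and arrays left out (small points, open where the adjusted p was 0.05 or more). All values of a gene stay on its side of 0, and 9 genes passed in every alternative.

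The calls of 9 genes held in all 15 alternatives: Slc15a1, Slc5a8, Slc23a4, Slc15a3, Slc7a3 and Slc5a10, which fell, and Slc39a2, Slc24a3 and Slc6a4, which rose. The other 7 lost their call in 2 to 9 alternatives each, always with the same direction.

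Transport genes outside the solute carrier set were compared in the same fit. Of 19 ABC transporters, 1 rose: Abcg2, the exporter of drugs, urate and porphyrins, with 10.18, 10.18, 10.19 and 10.14 in KO arrays, against 9.37, 9.38, 9.45 and 9.36 in wild-type arrays. That log2 fold change of 0.78 ± 0.05 (SE; limma adjusted p = 2.12e-06) exceeded in size those of all solute carriers that rose. Of 9 ion pump genes, 3 fell. Atp12a, the non-gastric proton-potassium pump, had 3.69, 3.68, 3.94 and 3.54 in KO arrays, against 4.79, 4.92, 4.94 and 4.56 in wild-type arrays (log2 fold change -1.09 ± 0.10). The KO values of Atp12a lay below the array medians. Atp2c2, a calcium and manganese pump of the secretory pathway, and Atp1b3, a subunit of the sodium pump, had -0.52 ± 0.09 and -0.20 ± 0.05 (limma adjusted p = 0.00337 and 0.0194). Without KO replicate 1, 2 or 4 or wild-type replicate 2 or 3, the adjusted p of Atp1b3 was 0.05 to 0.0583. Of 16 accessory and trafficking partners listed, 6 were analysed here, and Sgk1 alone passed. This kinase, which keeps channels and carriers at the membrane, rose by 0.23 ± 0.05 (limma adjusted p = 0.0225). The adjusted p of Sgk1 was 0.05 to 0.0682 without KO replicate 2 or wild-type replicate 2, 3 or 4. Bsg, the chaperone of monocarboxylate carriers, had -0.13 and did not pass (limma adjusted p = 0.195). None of 5 aquaporins, 5 organic anion transporters of the Slco family and 9 other major facilitator genes passed in limma, and 1, none and 1 of them had an unadjusted p under 0.05. Of 9 iron handling genes listed, 3 were analysed here. Lcn2 fell, Ireb2 rose by 0.19 and Hmox1 did not pass. The call of Ireb2 was lost without any single array, with adjusted p-values of 0.0595 to 0.113. These lists were compared by counts only, and over all genes 8.90% passed.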

How the data were processed

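Total RNA of 8 keratinocyte cultures was measured on one-colour arrays with biotin labelling, per the labels. The deposited values are taken as log2 signals from their range, and how they were summarised and normalized, or on which build, is not given in the sources used here. Of 11373 probe sets, 9374 had 1 symbol in the platform annotation, 479 had several and 1520 had none; the probe set with the highest mean stood for a gene. A probe set may bind related transcripts, as can 3 members with an _s_at and 1 with an _x_at suffix. Differences (KO minus wild-type) were fitted in R 4.3.3 with limma 3.58.1 (lmFit, then eBayes), with no covariate, and adjusted with Benjamini-Hochberg over 9294 genes; the functions were tested on simulated data. Standard errors are moderated, their variance being drawn toward a value shared by all genes. The p-values set the difference between genotypes against this moderated spread between the samples of each genotype. The number of arrays limits the precision. Arrays of a genotype differed with an SD of 0.157 to 0.175 across probe sets, so none was an identical copy of another. This spread does not show whether the samples came from separate animals or cultures.

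Named are all solute carrier genes that passed (the 15 largest falls and rises at most, and up to 3 per solute list), Slc3a2, Slc7a5, Slc25a1, Slc39a4 and Slc27a4 in any case (13 others of that list were not analysed here), and up to 3 called genes of each related list. The members and lists were chosen with earlier results of these data known. No dates or batches are given in the sources used here. Alternatives were quantile normalization, arrays centred on their median, filters that drop the dimmest 25% of genes or those with a mean log2 signal under 5, the mean of all probe sets, trend and robust eBayes, a replicate block, and leaving out each array. The intervals are at 95%.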

Additional observations from a re-analysis of the deposited data

Results flagged for a closer look

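Among 33 named genes, 66 groups of 4 arrays were searched for an array far from its group, and chance flags about 1 in 20 such groups. For Slc7a5, the gene of LAT1, wild-type replicate 4 at 9.44 stood above the other 3 wild-type arrays, which lay between 9.16 and 9.20, and without it the log2 fold change was -0.25 (limma adjusted p = 0.0358). For Abcg2, KO replicate 4 at 10.1 lay below the other KO arrays, and without it the log2 fold change was 0.79 (limma adjusted p = 1.55e-05).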

How the results depend on the processing

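No named solute carrier gene that passed changed direction in any of the 15 alternatives. The number of solute carrier genes that passed was 16 in the main fit and 10 to 16 with 1 array left out, of which 3 to 6 were higher and 6 to 10 lower in the knockout. The lowest totals came without KO replicate 2 (3 higher, 7 lower) and without KO replicate 4 (4 higher, 6 lower). In the other alternatives the total was 11 to 21. With arrays centred on their median, 6 members were higher and 7 lower, in place of 6 and 10, and over all genes 482 were higher and 314 lower, in place of 415 and 412. The median log2 fold change of the members moved from -0.0064 to 0.0033 after quantile normalization and to 0.0203 after centring. Deviations of arrays with the same replicate number correlated at -0.05 to 0.09, and those with different numbers at -0.10 to 0.11. Such correlations cannot decide whether samples of the same number share a preparation, and the labels do not say. The replicate block left 11 members, 3 higher and 8 lower, and over all genes 659 in place of 827. It ended the calls of Slc7a5 (limma adjusted p = 0.0707), Slc35c1, Slc35e3, Slc35f5, Slc44a4 and Slc6a16 and added Slc10a6. The count over all genes was 598 to 687 with 1 array left out and 1134 with trend and robust settings, where 21 members passed. The mean of all probe sets changed no member, as each had 1 probe set. The cause of these shifts was not tested, except that runs with an array left out have fewer samples and filtered runs test fewer genes. With 84 of the 171 members at a mean log2 signal under 5, low signal limits what could be detected in those genes.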
